A study of Mus musculus with 16 samples.

Results

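The 10 genes described here encode transcription factors of the primitive streak and of the mesoderm that leaves it: T (brachyury), Eomes, Mixl1, Gsc, Mesp1, Mesp2, Tbx6, Msgn1, Hand1 and Evx1. They were chosen by name, as 10 of the 26180 genes with a curated RefSeq transcript on the chromosomes of GRCm38. For each gene, the peaks of all 6 deposited lists were taken within 2500 bp on either side of the transcription start site, a window of 5001 bp, and over the gene body. H3K4me3, H3K27me3 and Suz12 had been mapped by chromatin immunoprecipitation and sequencing (ChIP-seq) in R1 mouse embryonic stem cells (ESCs), a cultured pluripotent line, grown without feeders in serum. LIF-ESCs were kept in 100 units per ml of LIF, the cytokine that sustains self-renewal. Myc-ESCs were kept in 50 nM 4-hydroxytamoxifen (OHT) and no LIF, and carried MycER, a Myc fusion protein that OHT activates. The comparison asked how the chromatin of the same line differs when activated MycER takes the place of LIF. The study describes MycER cells grown with LIF or with OHT, so LIF-ESCs would carry the inactive fusion, although the labels do not name the line or clone of these libraries. LIF, OHT and Myc activity differ together between the cultures and cannot be told apart.

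By the labels there were 16 libraries, of which 4 were inputs and the rest were pairs that shared culture and antibody, but each pair had only 1 list of peaks. No read counts came with the lists, so depth is unknown, no value has a replicate error and no test was possible. All differences below are between 1 list and another. Each peak has a score from the peak caller, which is the negative base 10 logarithm of its p-value times 10, with a lowest value of 50 that corresponds to a p of 1e-05. The score grows with depth as well as with enrichment, and the value 3100 is shared by 161 Suz12 peaks of LIF-ESCs and 522 of Myc-ESCs, a tie above which 8 and 27 Suz12 peaks stood, so peaks at 3100 cannot be ranked among themselves. The lists differed in length, from 3120 H3K27me3 peaks for LIF-ESCs to 16717 for Myc-ESCs, a ratio of 5.36. For Suz12 the ratio was 1.23, and for H3K4me3 it was 0.935. Lists of equal length, which kept the strongest peaks of the longer list, were therefore used beside the full lists. They cannot tell a longer list from a gain at many genes, since the cut would remove the trace of either. All 10 of 10 ESC marker genes (among them Pou5f1, Sox2 and Nanog) had H3K4me3 at the start site in both cultures. The mark is common, with a share over all 26180 genes of 62.2% with LIF and 63.3% with Myc. The marker count alone therefore cannot check the cell label.

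The primitive streak is the region of the early embryo through which epiblast cells leave to become mesoderm and definitive endoderm. In ESCs its regulators are classic examples of bivalent genes, whose start sites carry both H3K4me3, a mark of active or poised promoters, and H3K27me3, the mark laid down by Polycomb repressive complex 2 (PRC2). Suz12 is a core subunit of PRC2 that its enzyme needs for activity.

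Most members had H3K4me3 and Suz12 in both cultures, while H3K27me3 peaks were few and small. H3K4me3 lay at 8 of 10 start sites in LIF-ESCs and 9 of 10 in Myc-ESCs, against 62.2% and 63.3% of all genes. Suz12 lay at 7 and 8 start sites, against 12.1% and 14.6% of all genes. H3K27me3 lay at 2 start sites in LIF-ESCs, those of Hand1 and Evx1, where 3.82% of all genes had it. In Myc-ESCs it lay at 5, those of T, Eomes, Mesp2, Hand1 and Evx1, where 10.7% of all genes had it.

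**Figure D1:**
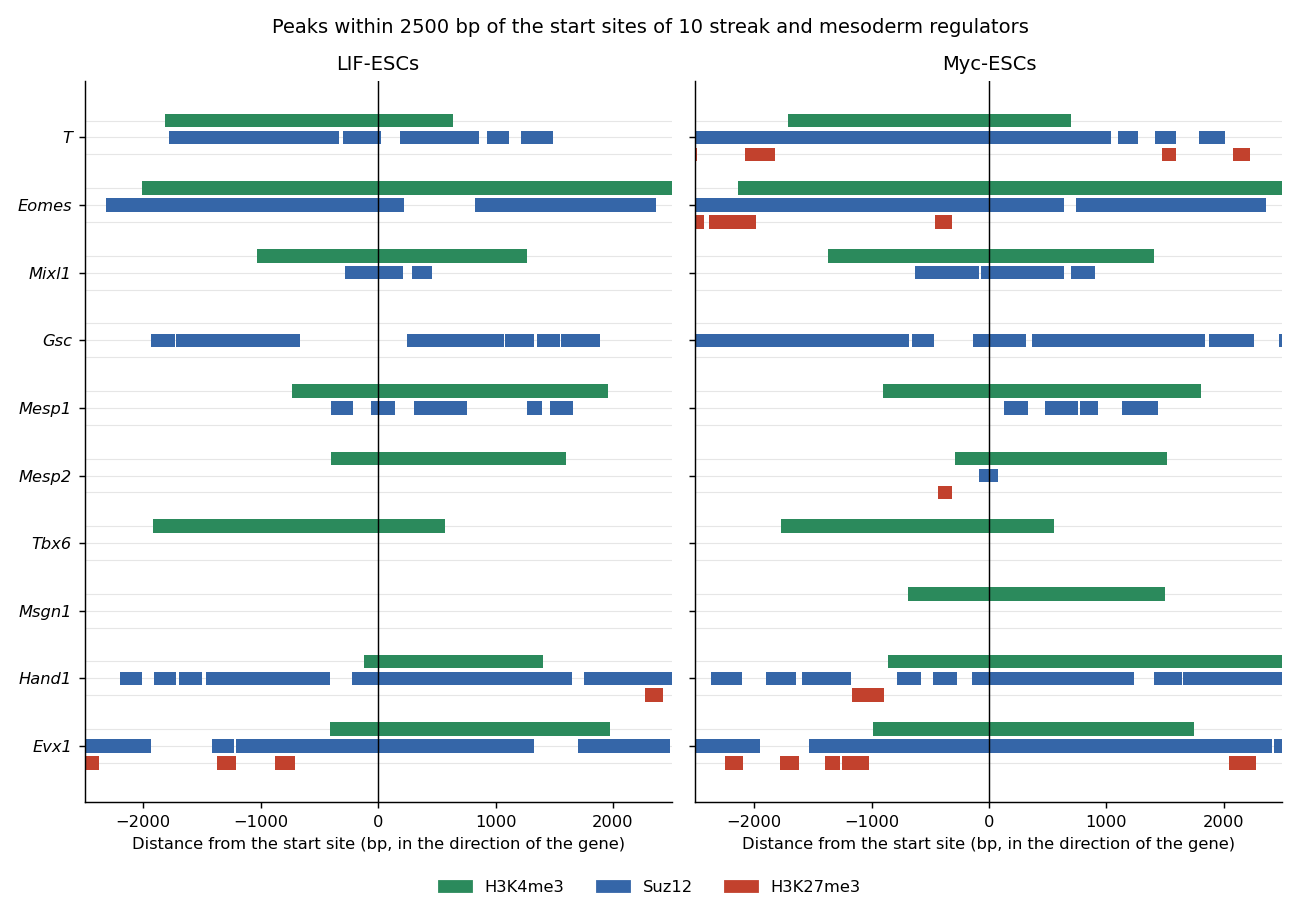
Peaks of H3K4me3 (green), Suz12 (blue) and H3K27me3 (red) within 2500 bp of the start site of each member in LIF-ESCs (left) and Myc-ESCs (right), with distance in bp in the direction of the gene and 1 list per track. Suz12 covers long stretches at T, Eomes, Gsc, Hand1 and Evx1 in both cultures, and red bars stand at 2 genes in LIF-ESCs against 5 in Myc-ESCs.

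Between the cultures, the members differed in presence of a mark as follows. H3K4me3 was found in Myc-ESCs only at 1 member, Msgn1 (2.35% of all genes), but in LIF-ESCs only at 0 members (1.21% of all genes). Suz12 was found in Myc-ESCs only at Mesp2 (3.81% of all genes), and in LIF-ESCs only at 0 members (1.28%). H3K27me3 was found in Myc-ESCs only at 3 members, T, Eomes and Mesp2 (7.65% of all genes), and in LIF-ESCs only at 0 (0.733%). All 3 marks lay together at 2 members in LIF-ESCs, where 2.77% of all genes had them, and at 5 in Myc-ESCs, where 8.86% did. In H3K27me3 lists of equal length, 3120 peaks each, only Eomes and Evx1 kept the mark in Myc-ESCs (3.53% of all genes). Eomes held it in Myc-ESCs only (1.75%) and Hand1 in LIF-ESCs only (2.04%). The Eomes call rested on 1 peak that lay mostly outside the window. The larger number of members with H3K27me3 in Myc-ESCs was not seen once the lists had the same length. Over all genes the shares were then near each other too, 3.82% in LIF-ESCs and 3.53% in Myc-ESCs. The lowest scores kept were 50.01 and 103.8, so these lists cannot separate list length from a gain at many genes.

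T, the founding T-box factor, is needed for posterior mesoderm and the notochord, and lies at chr17:8434423-8442496 on the plus strand of GRCm38. Its H3K4me3 peak covered 2455 bp of the window in LIF-ESCs (score 222) and 2416 bp in Myc-ESCs (score 159). Suz12 covered 2894 bp in LIF-ESCs in 5 separate peaks, the highest with a score of 924. With Myc it covered 4114 bp, and a single peak of 3649 bp with a score of 3100 ran from 2613 bp upstream to 1035 bp downstream of the start site. The breaks that separated the Suz12 peaks around the start site in the LIF list were thus bridged in the Myc list. T had no H3K27me3 peak in the window in LIF-ESCs, where the nearest lay 285403 bp away. In Myc-ESCs 4 small peaks covered 533 bp of the window, with scores from 62.5 to 99.0. They flanked the H3K4me3 peak on both sides, 2 upstream of it and 2 in introns 2 and 3. The strongest of them, 259 bp at chr17:8432345-8432603, is shown with the promoter because the former holds few and the latter many CpG dinucleotides, which are in capitals in both (5 in the peak and 17 in the promoter). The promoter is the stretch from 250 bp before to 50 bp after the start, chr17:8434173-8434472, from RefSeq on GRCm38.p6.
T promoter: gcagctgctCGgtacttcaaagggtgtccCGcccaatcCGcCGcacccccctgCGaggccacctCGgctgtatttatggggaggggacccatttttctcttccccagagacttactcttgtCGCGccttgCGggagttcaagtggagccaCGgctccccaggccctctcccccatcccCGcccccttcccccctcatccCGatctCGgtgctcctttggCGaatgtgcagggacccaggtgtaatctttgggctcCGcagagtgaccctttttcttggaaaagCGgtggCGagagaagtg
T H3K27me3 peak of Myc-ESCs: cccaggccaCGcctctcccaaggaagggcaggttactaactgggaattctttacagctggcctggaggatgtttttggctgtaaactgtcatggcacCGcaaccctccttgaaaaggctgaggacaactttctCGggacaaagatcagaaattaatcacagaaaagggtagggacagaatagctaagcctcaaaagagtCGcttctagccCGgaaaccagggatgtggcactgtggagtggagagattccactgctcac

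Eomes, a T-box factor that acts in the streak, in endoderm and in trophoblast, lies at chr9:118478189-118486132 on the plus strand. It had the longest cover of H3K4me3 among the members, 4513 bp in LIF-ESCs (score 1087) and 4636 bp in Myc-ESCs (score 1449). Suz12 covered 4074 bp in LIF-ESCs, with a highest score of 2823, and 4757 bp in Myc-ESCs, with a highest score of 3100. Both marks therefore lay over most of the window in both cultures. A second H3K4me3 peak, 4435 bp long with LIF and 4428 bp with Myc, started in exon 6 and ran past the end of the gene. H3K27me3 had no peak in the window in LIF-ESCs, with the nearest peak 88883 bp upstream. In Myc-ESCs 4 peaks covered 616 bp, and 3 of them stood in a row at the upstream edge of the Suz12 domain. The outermost had the highest score of any H3K27me3 peak at a member, 122, and spanned 311 bp from 2735 to 2425 bp upstream. The fourth lay close to the start site, from 461 to 315 bp upstream, at chr9:118477728-118477874. It is shown beside the promoter (chr9:118477939-118478238) because it was the most CpG-rich H3K27me3 peak of Myc-ESCs in the members' windows, with 8 CpG (in capitals) in 147 bp, against 10 in the 300 bp of the promoter.
Eomes promoter: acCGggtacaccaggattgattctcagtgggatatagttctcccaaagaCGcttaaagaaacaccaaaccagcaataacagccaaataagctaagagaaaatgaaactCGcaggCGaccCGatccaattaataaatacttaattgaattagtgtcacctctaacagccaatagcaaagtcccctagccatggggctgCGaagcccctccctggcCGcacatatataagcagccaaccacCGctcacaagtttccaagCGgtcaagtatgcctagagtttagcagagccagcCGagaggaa
Eomes H3K27me3 peak of Myc-ESCs: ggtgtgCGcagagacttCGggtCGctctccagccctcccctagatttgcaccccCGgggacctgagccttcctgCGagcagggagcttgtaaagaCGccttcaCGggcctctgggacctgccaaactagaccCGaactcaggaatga

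Mixl1, a homeobox factor of the streak that takes part in mesoderm and endoderm formation, lies at chr1:180693043-180697034 on the minus strand. Its H3K4me3 peak covered 2301 bp in LIF-ESCs (score 786) and 2778 bp in Myc-ESCs (score 503). Suz12 was short there, 662 bp in 3 peaks in LIF-ESCs with a highest score of 105, and 1464 bp in 3 peaks in Myc-ESCs with a highest score of 474. All 6 Suz12 peaks lay inside the H3K4me3 peak of their culture. H3K27me3 was far from Mixl1 in both lists, with nearest peaks at 214130 bp in LIF-ESCs against 363512 bp in Myc-ESCs.

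Gsc, a homeobox repressor of the anterior streak and organizer, lies at chr12:104471209-104473236 on the minus strand and was the only member with Suz12 and without H3K4me3. Its nearest H3K4me3 peak lay 38481 bp away in LIF-ESCs and 38835 bp away in Myc-ESCs. Of the 4154 genes with Suz12 in either culture, 2.96% lacked H3K4me3 in both cultures. Suz12 covered 2851 bp of the window in LIF-ESCs, in 6 peaks with a highest score of 658, and none of them touched the start site: it lay in a gap between 668 bp upstream and 249 bp downstream. In Myc-ESCs Suz12 covered 4350 bp, with a highest score of 2195, and a peak of 445 bp lay over the start site. Over the gene body, Suz12 covered 78.5% of the bases in LIF-ESCs and 95.6% in Myc-ESCs, so that nearly the whole gene lay under Suz12 in the second list. No H3K27me3 peak lay in its window in either culture, but a peak with a score of 53.3 lay 3225 bp downstream of the start site in Myc-ESCs. Gsc shared its pattern over the 6 lists, Suz12 in both cultures and nothing else, with 4 other genes, so that 5 of 26180 had it. The others were Lrrtm3, Mid2, Gm20052 and 6330420H09Rik, and in both lists Gsc had the longest Suz12 cover and the highest score of the 5. Its promoter (chr12:104473187-104473486, minus strand) is shown because it had no H3K4me3 although it held 25 CpG (capitals) in 300 bp, more than in 81.6% of promoters.
Gsc promoter: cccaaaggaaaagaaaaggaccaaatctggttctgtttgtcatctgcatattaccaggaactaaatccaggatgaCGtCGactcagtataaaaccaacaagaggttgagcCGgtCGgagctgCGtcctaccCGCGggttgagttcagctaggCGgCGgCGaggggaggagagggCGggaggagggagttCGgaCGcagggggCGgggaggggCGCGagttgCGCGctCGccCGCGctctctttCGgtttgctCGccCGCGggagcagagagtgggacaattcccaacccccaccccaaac

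Evx1, a homeobox factor of the posterior streak that lies beside the HoxA cluster, is at chr6:52313498-52318378 on the plus strand. H3K4me3 covered 2381 bp in LIF-ESCs (score 202) and 2731 bp in Myc-ESCs (score 218). Suz12 covered 4069 bp in LIF-ESCs, with a highest score of 1138, and 4576 bp in Myc-ESCs, with a highest score of 3100. As at T, separate Suz12 peaks of the LIF list, here 4 of them, were matched by 1 peak of 3949 bp in the Myc list that ran from 1534 bp upstream to 2414 bp downstream. Evx1 had more H3K27me3 than any other member in both cultures, 444 bp in 3 peaks with LIF and 914 bp in 5 peaks with Myc. Within 20000 bp of the start site the counts were 5 and 21 peaks, over 786 bp and 3743 bp. The start site of the noncoding gene Evx1os lies 1334 bp away inside the window, so the marks of the pair cannot be told apart. The strongest H3K27me3 peak, with a score of 107 in Myc-ESCs, ran from intron 1 into exon 2 at chr6:52315541-52315768. Its sequence is shown because it was, with the outermost peak of Eomes, 1 of only 2 member peaks of Myc-ESCs that stayed in the lists of equal length, and it held 3 CpG (capitals) in 228 bp.
Evx1 H3K27me3 peak of Myc-ESCs: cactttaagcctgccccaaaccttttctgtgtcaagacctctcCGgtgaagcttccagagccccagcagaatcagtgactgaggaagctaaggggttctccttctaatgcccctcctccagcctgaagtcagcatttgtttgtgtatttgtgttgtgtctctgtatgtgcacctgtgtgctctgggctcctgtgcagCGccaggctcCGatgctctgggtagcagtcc

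Mesp1 and Mesp2 are neighbouring bHLH genes of nascent and cardiac mesoderm and of somite boundaries, with start sites 17137 bp apart on chromosome 7 and opposite directions. Mesp1 (chr7:79792241-79793590, minus strand) had H3K4me3 over 2693 bp in LIF-ESCs (score 802) and 2710 bp in Myc-ESCs (score 872), which took in 100.0% of the gene body in both. Its Suz12 peaks were short and weak, 1158 bp in 5 peaks in LIF-ESCs with a highest score of 170, and 943 bp in 4 peaks in Myc-ESCs with a highest score of 119. Mesp1 was the only member whose Suz12 was lower in the Myc list by cover of the window, by longest peak and by score, although over its gene body Suz12 covered 49.6% in LIF-ESCs and 63.3% with Myc.

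Mesp2 (chr7:79810727-79813431, plus strand) had a weaker H3K4me3 peak, 2003 bp in LIF-ESCs (score 196) and 1810 bp in Myc-ESCs (score 87.3). Suz12 and H3K27me3 had no peak there in LIF-ESCs, and each had 1 peak near the lowest listed score in Myc-ESCs. The Suz12 peak covered 156 bp over the start site with a score of 58.9. The H3K27me3 peak covered 122 bp from 433 to 312 bp upstream at score 59.9, and lay 21 bp outside the H3K4me3 peak without overlapping Suz12. With a score of at least 100 required, neither was left, and the Myc-ESC H3K4me3 peak of Mesp2 was lost too. The H3K27me3 peak (chr7:79810294-79810415) is shown because it had no CpG at all, and so no capitals.
Mesp2 H3K27me3 peak of Myc-ESCs: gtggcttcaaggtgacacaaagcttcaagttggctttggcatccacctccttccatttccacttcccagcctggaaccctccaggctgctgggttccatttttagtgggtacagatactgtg

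Tbx6 and Msgn1, which direct cells to presomitic mesoderm, were the 2 members without Suz12 or H3K27me3 in either culture. Tbx6 (chr7:126781483-126785548, plus strand), a T-box factor, had H3K4me3 over 2486 bp in LIF-ESCs (score 213) and 2331 bp in Myc-ESCs (score 107). Its nearest Suz12 peak lay 244897 bp away in LIF-ESCs and 168908 bp away in Myc-ESCs. The start site of Ypel3 lies 4520 bp upstream and the windows of the pair share bases, but Tbx6 had an H3K4me3 peak of its own over its start site.

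Msgn1, a bHLH factor with a single exon (chr12:11208382-11208948, minus strand), had no H3K4me3 peak in LIF-ESCs, where the nearest was 12123 bp upstream. In Myc-ESCs a peak of 2190 bp with score 149 lay over the start site and the whole gene. At the lists' own limit it was the only H3K4me3 presence among the members that differed between the cultures, and it stayed at a score of at least 100. Lists of equal length could not change it, since for H3K4me3 they shortened only the LIF-ESC list. The nearest Suz12 peak was 58071 bp away in LIF-ESCs and 57225 bp away in Myc-ESCs. The promoter (chr12:11208899-11209198, minus strand) is shown as the counterpart of that of Gsc, since it held only 4 CpG (capitals) in 300 bp, fewer than the 7 of the median promoter.
Msgn1 promoter: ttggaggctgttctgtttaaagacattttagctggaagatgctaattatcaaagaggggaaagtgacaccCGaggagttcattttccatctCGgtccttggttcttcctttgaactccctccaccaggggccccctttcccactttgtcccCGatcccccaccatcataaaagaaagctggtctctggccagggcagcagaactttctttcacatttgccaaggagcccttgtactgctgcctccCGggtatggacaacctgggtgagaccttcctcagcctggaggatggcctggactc

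Hand1, a bHLH factor of lateral and extraembryonic mesoderm, heart and trophoblast giant cells, lies at chr11:57828713-57832147 on the minus strand. Its H3K4me3 peak at the start site was the weakest of the members in LIF-ESCs, 1531 bp with a score of 87.4. A second peak of 1997 bp lay over exon 2 and past the gene end. In Myc-ESCs 1 peak of 6277 bp with a score of 414 took in both places and 3361 bp of the window, and it covered 100.0% of the gene body against 42.5% in LIF-ESCs. Suz12 covered 4242 bp of the window in LIF-ESCs but 3812 bp in Myc-ESCs, with highest scores of 1141 and 3100. The peaks with these scores began 1754 and 1652 bp downstream of the start site. Over the start site itself lay a peak of 1690 bp with a score of 791 in LIF-ESCs. In Myc-ESCs the peak there was shorter and lower, 1381 bp with a score of 557. The longest Suz12 peak was nevertheless longer in the Myc list, 3610 bp against 1690 bp, and much of it lay beyond the downstream end of the window, up to 5261 bp from the start site. H3K27me3 covered 148 bp of the window in LIF-ESCs, in intron 1, and 273 bp in Myc-ESCs, in 2 peaks upstream with scores of 51.9 and 57.2. Beyond the window, a Myc-ESC peak of 189 bp with a higher score, 87.6, lay in exon 2. None of these Myc-ESC peaks shared a base with the LIF-ESC peak. The presence of H3K27me3 at Hand1 in both lists was therefore not the presence of the same peak.

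**Figure D2:**
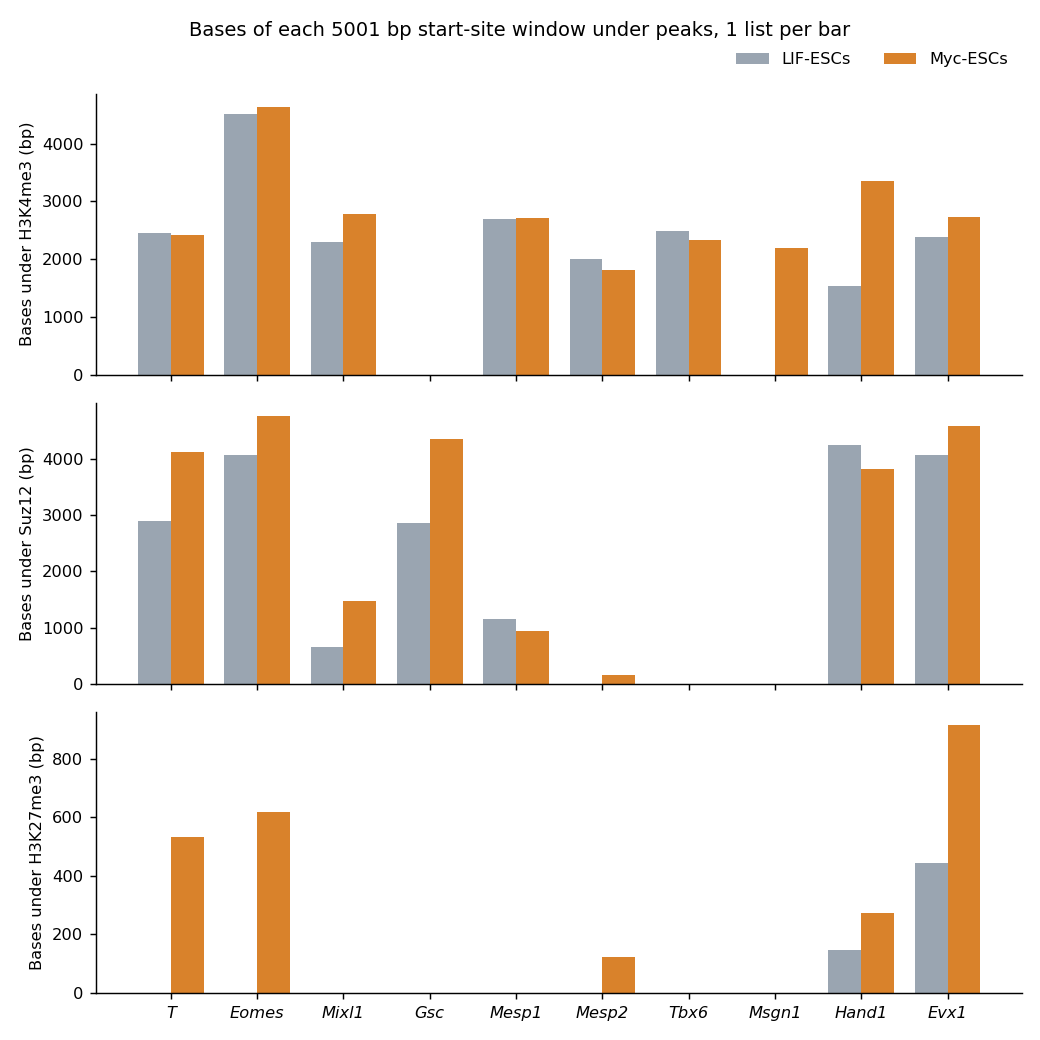
Bases of each member's 5001 bp window (vertical axes, bp) under H3K4me3 (top), Suz12 (middle) and H3K27me3 (bottom) in LIF-ESCs (grey) and Myc-ESCs (orange), 1 list per bar and no error. H3K27me3 bars stay under 1000 bp, and the highest, 914 bp, is that of Evx1 in Myc-ESCs.

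Read across the members, H3K4me3 was present but low. All 8 members with the mark in LIF-ESCs had a highest score under the median of the marked genes, 2011, and all 9 in Myc-ESCs had one under 1656. Hand1 in LIF-ESCs scored above only 2.84% of marked genes, and Eomes, the highest member, above 34.0% in LIF-ESCs and 46.1% in Myc-ESCs. The ratio of bases under H3K4me3 in Myc-ESCs to LIF-ESCs had a median of 1.02 over the 8 members with both (0.904 to 2.2), and a median of 1.04 over the 15958 genes with both. The highest ratio was that of Hand1, where the separate LIF peaks were joined.

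Suz12 domains were long at some members and short at others. At Eomes, Hand1 and Evx1 it covered more of the window than at 92.3%, 92.9% and 92.2% of the genes with Suz12 in LIF-ESCs, and at T and Gsc more than at 84.8% and 84.4%. At Mesp1 and Mixl1 it covered more than at 55.7% and 39.4%. The same 5 genes had the longest cover in Myc-ESCs, from 3812 to 4757 bp, against a median of 1337 bp among genes with Suz12. Of the 7 members with Suz12 in both cultures, 5 had more bases under it in Myc-ESCs (all but Mesp1 and Hand1), where 81.4% of the 2822 such genes did. The longest peak was longer in Myc-ESCs at 6 of 7, all but Mesp1, where 82.3% of such genes did the same. The highest score was higher at the same 6, against 78.2% of such genes. At Hand1 the peak with that score lay downstream, and the peak over the start site scored lower in Myc-ESCs, 557 against 791. The median ratio of bases, Myc-ESCs over LIF-ESCs, was 1.17 for the members (0.814 to 2.21) and 1.38 for all such genes, whose quartiles were 1.06 and 2.10. The larger Suz12 cover in the Myc list was thus common to most genes with Suz12, and the share of members with it was close to the background.

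H3K27me3 did not follow Suz12 at every member. In LIF-ESCs 5 members had Suz12 and no H3K27me3, namely T, Eomes, Mixl1, Gsc and Mesp1. Of these, T and Eomes had H3K27me3 in Myc-ESCs, 2 of 5, where 58.2% of the 2328 genes in that state did. Gsc had none in its window although its Suz12 cover of 4350 bp in Myc-ESCs was above that of T, 4114 bp. Within 20000 bp of the start site, T had 0 H3K27me3 peaks in LIF-ESCs against 7 in Myc-ESCs, Eomes 0 and 4, and Gsc 0 and 1.

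The position of the H3K27me3 peaks was also described against the other marks. All 4 member peaks of LIF-ESCs overlapped Suz12, and so did 11 of 16 in Myc-ESCs. In the windows of all genes with the 3 marks, 61.9% of H3K27me3 peaks did so in LIF-ESCs and 66.5% in Myc-ESCs. H3K4me3 was overlapped by 0 of 4 member peaks with LIF and 2 of 16 with Myc, both at Eomes, where 54.5% and 64.2% of the peaks at all such genes overlapped it. The other 14 peaks of Myc-ESCs lay beside the H3K4me3 peak, 12 of them within 1000 bp of its edge, and the farthest was 1375 bp from it at T. Distances were as short as 21 bp at Mesp2, 31 bp at Hand1 and 37 bp at Evx1. The window of 5001 bp itself keeps such peaks near the H3K4me3 peak, and these distances were not counted over all genes. Member peaks lay outside the H3K4me3 peak more often than they overlapped it. Several belong to the same gene, however, and 16 peaks from 5 genes are not independent.

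**Figure D3:**
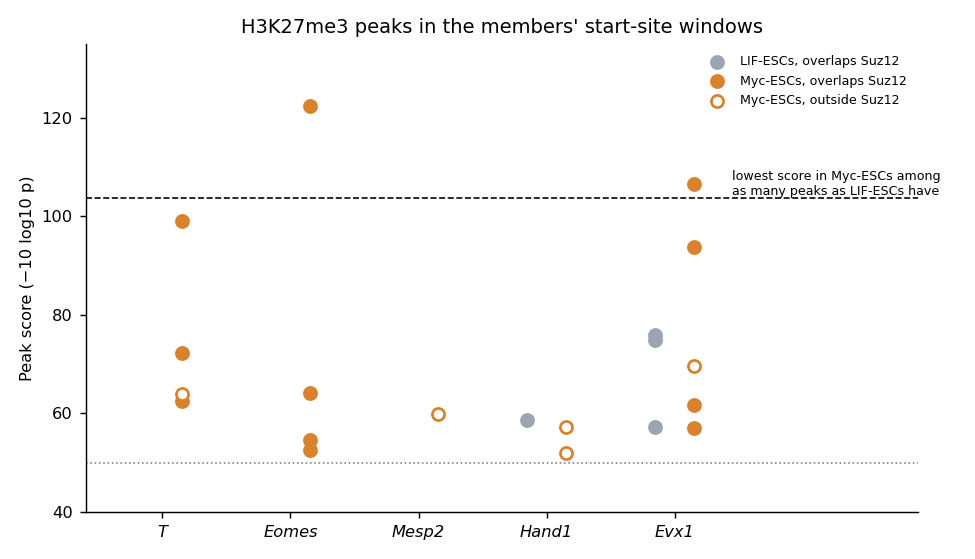
Score of each H3K27me3 peak (vertical axis, negative log10 p times 10) in the windows of the 5 members that had any, in LIF-ESCs (grey) and Myc-ESCs (orange), filled where the peak overlaps Suz12 and open where it does not. The dotted line is the lowest score of the lists, 50, and the dashed line, 103.8, is the limit above which the Myc-ESC list is as long as that of LIF-ESCs, passed by 1 peak of Eomes and 1 of Evx1.

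The H3K27me3 peaks of the members were short and weak, as were those of the whole lists. Their median length was 155.5 bp in both cultures, against 157 bp in the LIF-ESC list and 162 bp in the Myc-ESC list. Their median score was 66.8 in LIF-ESCs and 63.2 in Myc-ESCs, against 63.7 and 65.4 in the lists. None of the 4 in LIF-ESCs reached a score of 100, where 339 of 3120 list peaks did. In Myc-ESCs 2 of 16 did, beside 3378 of 16717 list peaks. Only at Evx1 did peaks of the cultures overlap, where 1 peak of LIF-ESCs overlapped 2 of Myc-ESCs.

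CpG dinucleotides, which PRC2 and H3K4 methyltransferase complexes are known to favour, were counted in the 1001 bp around each start site. Gsc had 103, Mixl1 92, T 65, Mesp1 60, Mesp2 50, Eomes 44, Evx1 42, Hand1 31, Tbx6 29 and Msgn1 23. The median was 37 over all genes, 64 over genes with Suz12, 58 over genes with H3K4me3 and no Suz12, and 9 over genes with neither Suz12 nor H3K4me3. Tbx6 and Msgn1, the members with H3K4me3 and no Suz12, had the fewest, and both were below the lower quartile of genes in that state, 37. Among the other members the order of CpG was not that of Suz12, since Hand1, with 31, had among the longest Suz12 covers and Mixl1, with 92, among the shortest. All 10 points come from single genes, and no test was made.

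**Figure D4:**
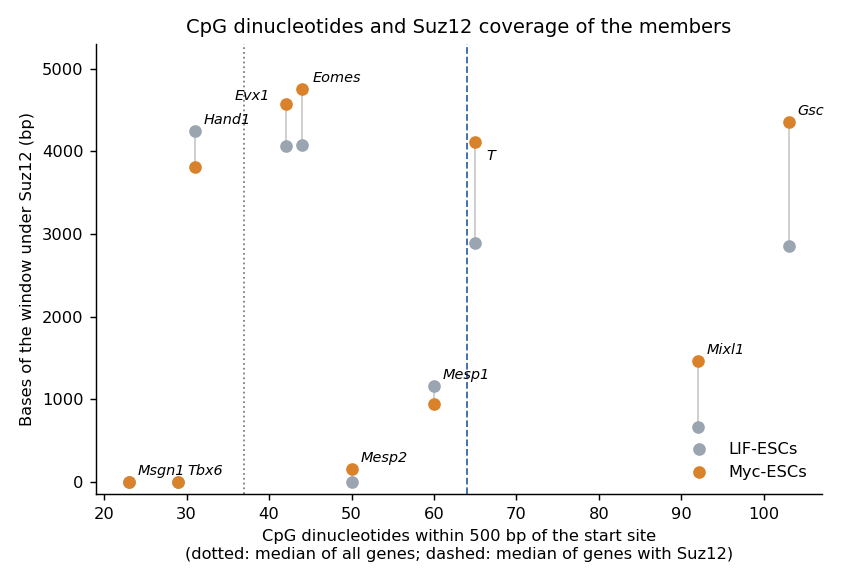
CpG dinucleotides within 500 bp of the start site (horizontal axis, count) against bases of the window under Suz12 (vertical axis, bp) for the 10 members in LIF-ESCs (grey) and Myc-ESCs (orange), joined by a line for each gene. Hand1, Evx1 and Eomes stand high with 31 to 44 CpG, whereas Mixl1 stands low with 92.

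Short motifs were searched on both strands of the 300 bp promoters, in a RefSeq table of 32851 promoters that matched 8 of the 10 members (not Mixl1 and Hand1). The E-box CACGTG, which Myc with Max is known to bind, was in 7.15% of all promoters and in none of the 8. ATCAAAG, a site of Tcf and Lef factors, was in 3.73% of promoters and in those of Mesp1, 31 bp before the start, and Msgn1, 203 bp before it. TATAAA was in 13.6% of promoters and in those of Tbx6, 43 bp before the start, and Gsc, 164 bp before it. CACACC, the core of T-box sites, was in 19.0% of promoters and in those of Mesp1, Mesp2 and Evx1. None of these motifs overlap in letters with another in these promoters, and a match is only a match of letters.

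Other genes of the streak and of mesoderm, in 6 lists of 61 genes with no member among them, showed how far the pattern of the members was shared. Suz12 lay at 43 of 61 in LIF-ESCs and 48 of 61 in Myc-ESCs, and H3K27me3 at 26 and 44. H3K27me3 was in Myc-ESCs only at 18 of 61 (29.5%, against 7.65% of all genes) and in LIF-ESCs only at 0, beside 3 and 0 of the 10 members. In lists of equal length, these counts became 7 and 8 of 61. H3K27me3 then lay at 26 of 61 with LIF and 25 with Myc, but such lists level the shares of all genes as well. The list closest to Hand1 in role, lateral, cardiac and blood mesoderm, had H3K27me3 at 7 of 13 genes in LIF-ESCs but at 13 of 13 in Myc-ESCs, and at 7 of 13 in both with lists of equal length. In the list closest to Tbx6 and Msgn1, paraxial mesoderm and segmentation, it lay at 6 and 9 of 12, and at 6 and 4 with lists of equal length. The signals that induce and shape the streak, such as Nodal and Wnt3, had H3K4me3 at 12 of 12 in both cultures and Suz12 at 4 and 5.

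The regulators of other early lineages are given for comparison, though some were also in the streak and mesoderm lists above. These were Foxa2, Gata4, Gata6, Hhex and Cer1 of the endoderm list and Cdx2 of the trophoblast list. Suz12 lay at 9 of 12 endoderm regulators in both cultures and at 10 and 9 of 12 trophoblast regulators, a list that shares Eomes and Hand1 with the members. H3K27me3 lay at 4 of 12 in LIF-ESCs and 8 of 12 in Myc-ESCs in either list, beside 2 and 5 of 10 members. With lists of equal length, it lay at 4 and 5 of 12 in either list, beside 2 and 2 of 10 members. As a share of the windows, H3K27me3 covered 1.18% in LIF-ESCs and 4.92% in Myc-ESCs for the members. It covered 2.91% and 12.9% for the endoderm list and 0.730% and 10.3% for the trophoblast list. These shares use the full lists, of which that of Myc-ESCs is 5.36 times as long, and the differences between gene lists were not tested.

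**Figure D5:**
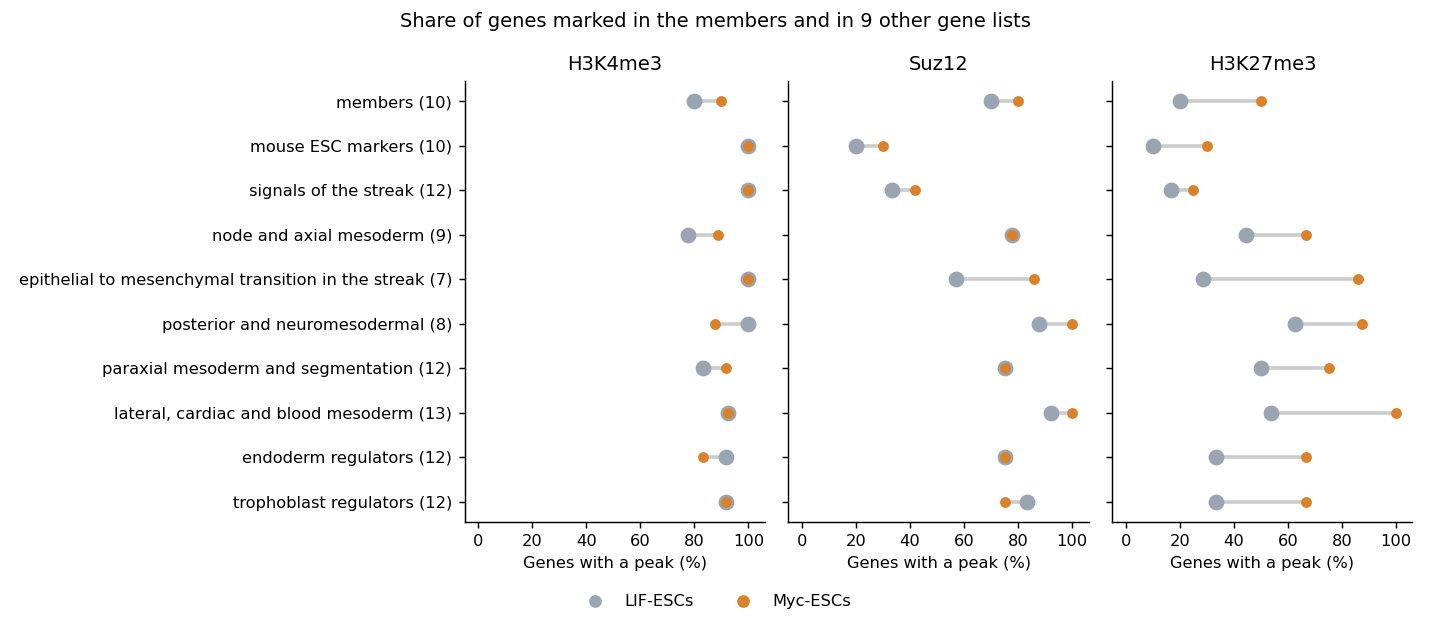
Share of genes with a peak at the start site (horizontal axes, %) for H3K4me3, Suz12 and H3K27me3 in LIF-ESCs (grey) and Myc-ESCs (orange), for the members and 9 other lists with the number of genes in parentheses. For H3K27me3 the orange point lies to the right of the grey one in every list, from 20.0% to 50.0% in the members, in full lists of unequal length.

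By presence over the 6 lists, the members showed 7 patterns. T and Eomes shared theirs, H3K4me3 and Suz12 in both cultures with H3K27me3 in Myc-ESCs only, with 1224 of all genes counting themselves, and with 22 of the 85 other list genes, among them Gata6, Isl1, Twist1 and Foxc1. Hand1 and Evx1, with all marks in both cultures, shared theirs with 621 genes and 27 list genes, among them Cdx2, Foxa2, Sox17 and Tbx20. Mixl1 and Mesp1, with H3K4me3 and Suz12 but never H3K27me3, shared theirs with 682 genes, among them Chrd, Gata2, Lef1 and Prdm1. Mesp2 shared its pattern with 320 genes, Etv2 and Zeb1 among them, and Msgn1 with 396, Noto among them. Tbx6, with H3K4me3 alone, had the most common pattern, that of 11841 genes including Nodal, Nanog and Pou5f1.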

How the data were processed

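Mouse ESCs in 2 cultures were profiled with 3 antibodies. The authors aligned reads to GRCm38 (mm10) with Bowtie2 2.2.3, kept unique reads and called peaks with MACS 1.4.2 at its default settings. They deposited 6 peak lists with a position and a score for each peak. Whether the 2 libraries of a group were pooled is not given in the sources used here. The deposited score is the negative log10 p times 10, which depends on depth, and depth is unknown.

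Start sites came from 45756 curated RefSeq transcripts of GRCm38.p6 (26180 symbols). A peak that overlapped the window by 1 bp or more marked the gene. Covered bases were counted once, and gene bodies ran from the first to the last base of the gene. Python 3.11.15, pandas 2.3.3, numpy 2.4.6, pysam 0.24.0 and matplotlib 3.10.9 were used. Interval code was tested on simulated data, with 0 errors in 500 windows set against a plain double loop and 0 in 200 windows of known state. The members, the other lists and the alternatives were chosen with earlier results of these data known. The genes named are the members, their neighbours within 20000 bp, list genes of the same pattern and, of the other lists, those marked in 1 culture only. The 5 genes with Suz12 alone were named after their values were seen. No test, interval or p-value was computed, since each culture and antibody had 1 list.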

Additional observations from a re-analysis of the deposited data

How the results depend on the processing

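The 21 counts and covered lengths were recomputed under 8 alternatives and compared by number only, so the genes behind a stable count could differ. Of 158 values, 129 stayed within 1.5 times the value reported. All did so with an overlap of at least 100 bp or a peak wholly within the window, and with GENCODE start sites. The start site of the longest transcript gave the same windows, since each member had 1 start site, so its 21 values could not differ. GENCODE start sites were an alternative chosen after seeing the data, as was the recount of members with more Suz12 bases. That count was 5 or 6 of 7 under every alternative. With a score of at least 100, members with H3K27me3 numbered 0 in LIF-ESCs and 2 in Myc-ESCs (Eomes and Evx1), as did those with all 3 marks, and H3K27me3 covered 0 and 304 bp. At that limit H3K4me3 was in Myc-ESCs only at 2 members (Msgn1 and Hand1) and in LIF-ESCs only at 1 (Mesp2), and Suz12 in Myc-ESCs only at 0. In equally long lists, H3K27me3 lay at 2 members in Myc-ESCs, over 304 bp, as did all 3 marks. It was in Myc-ESCs only at 1 (Eomes) and in LIF-ESCs only at 1 (Hand1). With 1000 bp on either side, H3K27me3 and all 3 marks lay at 1 and 3 members, and H3K27me3 in LIF-ESCs only at 1 (Evx1). In Myc-ESCs only it still lay at 3, but these were Eomes, Mesp2 and Hand1, so T was lost. The shorter window held 12873, 9523 and 163 bp under H3K4me3, Suz12 and H3K27me3 in LIF-ESCs, and 15995, 11307 and 378 bp in Myc-ESCs. With 5000 bp, H3K27me3 covered 1053 and 4897 bp. Over gene bodies, H3K27me3 lay at 3 members in Myc-ESCs (T, Hand1 and Evx1) and in Myc-ESCs only at 1 (T). No replicate could be left out, and no paired analysis was possible because each culture and antibody had 1 list. Peaks below the score limit of a list cannot be seen, so absence from a list is not absence of the mark.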

Other observations

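In the full peak lists, the other streak and mesoderm genes held further differences in presence. Among factors of the epithelial to mesenchymal transition that follows streak formation, H3K27me3 lay in Myc-ESCs only at 4 of 7, Twist1 (highest score 142), Cdh2 (93.3), Snai2 (68.0) and Zeb1 (60.7), against 7.65% of all genes, and only Twist1 did so in lists of equal length, an alternative added after seeing the data. Among the inducing signals it lay in Myc-ESCs only at Wnt3a (156), and Bmp4 had Suz12 in Myc-ESCs only, with a score of 1668. Cdx1, a posterior homeobox gene, had H3K4me3 in LIF-ESCs only (146) and Suz12 in Myc-ESCs only (80.4).

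H3K4me3 lay in Myc-ESCs only at 3 of the 61 streak and mesoderm genes (2.35% of all genes) and in LIF-ESCs only at 2 (1.21%). The 3 were Noto, a notochord homeobox gene (71.1), and the somite genes Meox2 (223) and Uncx (158). The 2 were Cdx1 and Meox1 (92.8). Noto and Meox1 scored under 100. Among ESC markers, Klf4 had Suz12 in Myc-ESCs only, with a score of 2505, and Esrrb (97.9) and Tfcp2l1 (53.8) had H3K27me3 in Myc-ESCs only, which neither did in lists of equal length.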
